A study of Mus musculus with 8 samples.

Results

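Intestinal identity and position along the gut were followed through 9 transcription factor genes among the 14247 genes of the deposited table. Cdx1, Cdx2, Hnf4a, Klf4 and Klf5 are the 5 identity factors, and Hoxb6, Hoxb8, Hoxb13 and Hoxd13 are the 4 Hox genes of colon position. The members were chosen by name with their levels in these libraries already known, so differences between libraries are given as a description without a test. Epithelial crypts of the colon were collected from wild-type mice on a C57BL/6 background, aged 2 to 4 months and kept under 12 h of light and 12 h of dark, at 0, 6, 12 and 18 h of zeitgeber time (ZT), which counts from lights on. No transgene or treatment was part of these groups. Each time point had 2 libraries of bulk RNA sequencing, named replicate 1 and replicate 2 after the labels, which describe separate samples but do not say whether each came from 1 mouse. The crypts were released from the large intestine with EDTA and scraped off, and neither the labels nor the methods name the segment from which they came.

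CDX1 and CDX2 are caudal-type homeobox factors that give the gut tube its intestinal character, and HNF4A is a nuclear receptor that sustains the genes of mature enterocytes. KLF5 is known from proliferating crypt cells and KLF4 from differentiated cells and goblet cells. Hox genes lie in clusters whose order along the chromosome mirrors the order of their domains along the body, so that genes with low numbers are active further forward than those of group 13, which mark the hindgut and the urogenital tract. In a bulk sample, fewer cells that express a gene and less RNA per cell cannot be told apart.

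Start regions were read for the members whose levels the results turn on. RefSeq promoter windows (build GRCm38.p6), covering 250 bases before to 50 bases after the start site, matched 5 of the 9 members, Cdx2, Hnf4a, Klf4, Hoxb8 and Hoxd13. Shown are Hoxb8, which differed most between libraries, Hoxd13, which ran opposite to it, and Cdx2, the identity factor with the widest range. They lie at chr11:96281655-96281954 (plus strand), chr2:74667975-74668274 (plus strand) and chr5:147307200-147307499 (minus strand). Capitals mark the letters searched on both strands, TTTATG of the CDX motif, CTCGTAAA and CCAATAAA of the group 13 HOX motif, and TATAAA of the TATA box.
Hoxb8: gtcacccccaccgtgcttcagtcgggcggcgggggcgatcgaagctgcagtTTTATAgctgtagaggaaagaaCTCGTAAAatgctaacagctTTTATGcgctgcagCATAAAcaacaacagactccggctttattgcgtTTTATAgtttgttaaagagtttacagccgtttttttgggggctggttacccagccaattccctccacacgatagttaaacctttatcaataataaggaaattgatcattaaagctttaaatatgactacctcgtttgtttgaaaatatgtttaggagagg
Hoxd13: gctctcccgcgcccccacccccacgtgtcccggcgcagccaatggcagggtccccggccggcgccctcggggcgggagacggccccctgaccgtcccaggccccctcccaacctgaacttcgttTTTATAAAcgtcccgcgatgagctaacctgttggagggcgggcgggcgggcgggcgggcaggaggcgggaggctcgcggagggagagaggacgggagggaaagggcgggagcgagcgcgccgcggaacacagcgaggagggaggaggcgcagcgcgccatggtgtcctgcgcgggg
Cdx2: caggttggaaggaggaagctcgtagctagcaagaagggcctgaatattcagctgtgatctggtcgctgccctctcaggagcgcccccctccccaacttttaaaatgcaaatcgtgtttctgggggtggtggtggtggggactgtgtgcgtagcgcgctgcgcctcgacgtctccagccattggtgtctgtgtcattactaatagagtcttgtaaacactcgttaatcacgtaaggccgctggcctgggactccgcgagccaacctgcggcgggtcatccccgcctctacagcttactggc
The Hoxb8 window held TTTATG 2 times, CTCGTAAA 1 time and TATAAA 2 times, with no overlap between them. In the Hoxd13 window TATAAA matched 2 times, on opposite strands over shared letters. Neither the Cdx2 window nor those of Hnf4a and Klf4 held any of the 4 motifs. Of 32851 promoter windows of the same length, 11.9% held TTTATG, 0.131% CTCGTAAA, 1.12% CCAATAAA and 13.6% TATAAA. A match is a run of letters and not a measured site.

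The libraries held 14722342 to 25159440 reads, and a count of 0 allowed up to 2.41 to 3.70 normalised counts (3 reads, counting error only). All values are normalised counts, the read counts divided by 1 size factor per library. The 10 epithelial markers summed to 249428 to 338502 normalised counts per library, against 38.7 to 314 for the 8 T cell markers, and all 10 colon genes listed were in the table. Markers of other tissues stood out in 4 libraries. In ZT12 replicate 1, the 8 smooth muscle markers summed to 4523 and the 9 fibroblast markers to 3064, where the other libraries reached at most 715 and 1212. In ZT0 replicate 2, the 7 B and plasma cell markers summed to 2214 and the 7 myeloid markers to 1897, against at most 765 and 1124 elsewhere. The prostate gene Pbsn had 1299 normalised counts in ZT12 replicate 2 and was at 0 in the other 7 libraries, and Tgm4, another prostate gene, had 715 there against 8.04 to 24.6. The 6 milk and mammary genes summed to 4176 in ZT18 replicate 1 and to at most 158 elsewhere.

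The identity factors were highly expressed in every library, whereas Hoxb6 and Hoxb8 were almost absent from 2 of the 8. Per kilobase of annotated exon, mean levels over the 8 libraries were 4611 ± 745 for Cdx1, 4561 ± 756 for Klf4, 3822 ± 391 for Hnf4a, 2054 ± 726 for Hoxb13, 1806 ± 508 for Cdx2, 1354 ± 106 for Klf5, 366 ± 214 for Hoxd13, 239 ± 188 for Hoxb6 and 66.1 ± 55.4 for Hoxb8 (normalised counts per kilobase, SD, n = 8). In this order the gap between Hnf4a and Hoxb13 and that between Klf5 and Hoxd13 were kept in all 8 libraries without overlap of the ranges. Hoxb6 exceeded Hoxb8 in each of the 8 libraries, although their ranges overlapped. The ranges of the other neighbours overlapped, and Cdx1 exceeded Klf4 in 4 of 8 libraries, Hoxb13 exceeded Cdx2 in 4 and Hoxd13 exceeded Hoxb6 in 4.

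**Figure D1:**
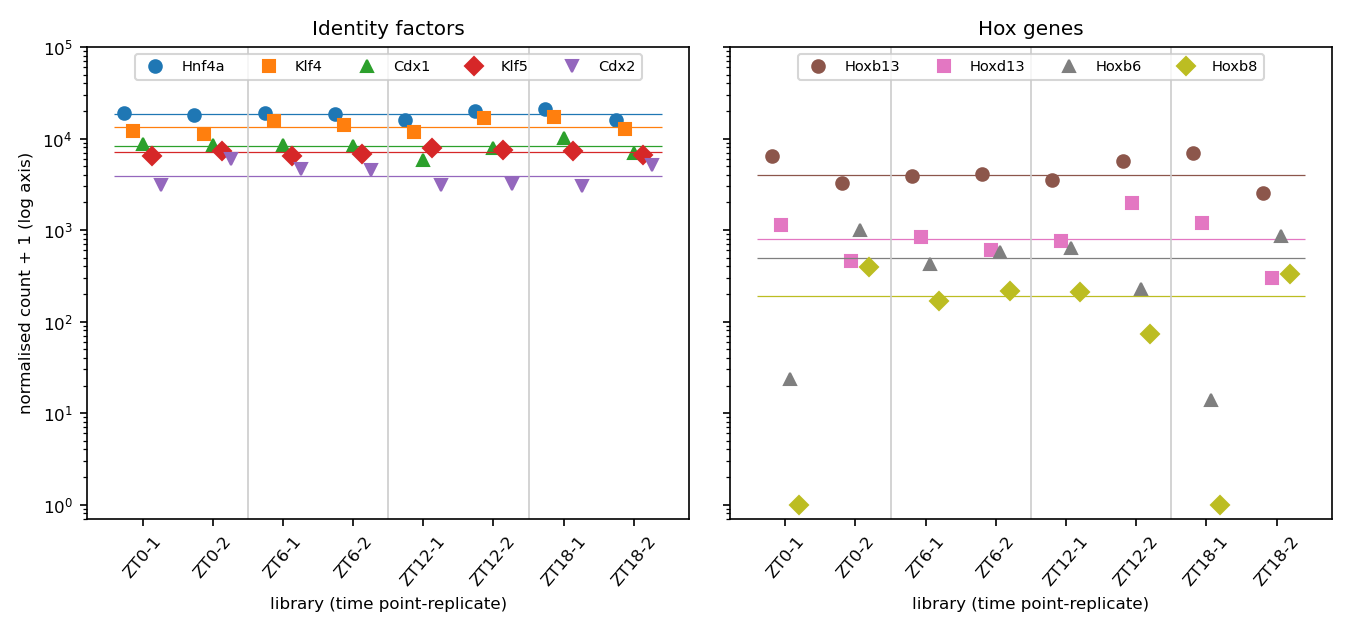
Normalised count plus 1 (log axis) of the 5 identity factors (left) and the 4 Hox members (right) in each of the 8 libraries, named by time point and replicate. Points are libraries, horizontal lines the median of each gene, and vertical lines separate the time points. With the deposited size factors the identity factors stay within 2.00-fold, while Hoxb6 and Hoxb8 drop in ZT0 replicate 1 and ZT18 replicate 1.

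With the deposited size factors, Klf5 (ENSMUSG00000005148, chromosome 14, 99298691 to 99315036, plus strand) had the smallest range of the identity factors. It had 6377 and 7367 (ZT0), 6505 and 6815 (ZT6), 7876 and 7533 (ZT12) and 7301 and 6571 (ZT18) normalised counts. Its highest library was 1.24-fold above its lowest, and 97.9% of the 13503 genes tested had a larger range on the log2 scale. Its place against Hnf4a depended on the scaling. The log2 range was 0.42 for Klf5 and 0.18 for Hnf4a after quantile scaling, and 0.33 and 0.30 after scaling to non-mitochondrial genes.

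Hnf4a (ENSMUSG00000017950, chromosome 2, 163506808 to 163572910, plus strand) had 19146 and 17893 (ZT0), 19046 and 18478 (ZT6), 15834 and 20048 (ZT12) and 21264 and 15905 (ZT18) normalised counts. The lowest libraries were ZT12 replicate 1 and ZT18 replicate 2, and the extremes were 1.34-fold apart. The gene has an upstream and a downstream start region, which the gene counts do not separate.

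Klf4 (ENSMUSG00000003032, chromosome 4, 55527143 to 55532466, minus strand) had 12098 and 11239 (ZT0), 15564 and 13885 (ZT6), 11814 and 16833 (ZT12) and 17043 and 12776 (ZT18) normalised counts. The libraries of ZT12 were 1.42-fold apart, not far below the 1.52-fold between the extremes.

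Cdx1 (ENSMUSG00000024619, chromosome 18, 61018862 to 61036199, minus strand) had 8790 and 8395 (ZT0), 8534 and 8189 (ZT6), 5765 and 7879 (ZT12) and 10129 and 6867 (ZT18) normalised counts. Its lowest value fell in ZT12 replicate 1, the library with the smooth muscle and fibroblast markers, and the extremes were 1.76-fold apart. The part of those cells in the low value was not tested.

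Cdx2 (ENSMUSG00000029646, chromosome 5, 147300805 to 147307270, minus strand) had the widest range of the identity factors, 2.00-fold with the deposited size factors. On the log2 scale the range was 1.00 with these, and 1.18 after quantile scaling and after scaling to non-mitochondrial genes. Without ZT0 replicate 2 its log2 range of 0.78 was just under the 0.81 of Cdx1. It had 3075 and 5982 (ZT0), 4610 and 4558 (ZT6), 3117 and 3167 (ZT12) and 2998 and 5157 (ZT18) normalised counts. Replicate 2 was 1.95-fold above replicate 1 at ZT0 and 1.72-fold at ZT18, while the libraries of ZT6 and of ZT12 differed by less than 1.02-fold. The high libraries were ZT0 replicate 2 and ZT18 replicate 2, the same ones in which Hoxb6 was highest, and the low ones ZT0 replicate 1, both ZT12 libraries and ZT18 replicate 1. ZT0 replicate 2 was also the library with the B cell and myeloid markers. ZT18 replicate 2 had 98.9 normalised counts over the B and plasma cell list and 639 over the myeloid list. Of these 639, Cd14 alone gave 577, a gene with 561 to 1018 normalised counts in the 8 libraries. The T cell list, however, was highest in ZT0 replicate 2 and ZT18 replicate 2, with 314 and 297 normalised counts against at most 179 elsewhere. The part of immune cells in the Cdx2 values was not tested. Per kilobase, the level of Cdx1 was 1.72 to 4.36 times that of Cdx2, lowest in ZT18 replicate 2 and highest in ZT18 replicate 1.

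Hoxb6 and Hoxb8 carried the largest differences, and these lay between libraries of the same time point. Hoxb6 (ENSMUSG00000000690, chromosome 11, 96292476 to 96301569, plus strand) had 22.8 and 1004 (ZT0), 425 and 569 (ZT6), 634 and 225 (ZT12) and 12.8 and 869 (ZT18) normalised counts. The low values rest on 23 reads in ZT0 replicate 1 (95% exact Poisson interval 14.5 to 34.3 normalised counts) and 15 reads in ZT18 replicate 1 (7.17 to 21.1), intervals that cover counting error only. The libraries of ZT0 were thus 43.9-fold apart and those of ZT18 67.8-fold, against 1.34-fold at ZT6 and 2.82-fold at ZT12.

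Hoxb8 (ENSMUSG00000056648, chromosome 11, 96281905 to 96285315, plus strand) had 0 and 398 (ZT0), 166 and 214 (ZT6), 210 and 72.6 (ZT12) and 0 and 332 (ZT18) normalised counts. No read was counted in ZT0 replicate 1 or ZT18 replicate 1, which allows up to 2.98 and 2.56 normalised counts. Replicate 2 was therefore at least 134-fold higher at ZT0 and at least 130-fold higher at ZT18. In the 6 libraries with Hoxb8 reads, Hoxb6 had 2.52 to 3.10 reads for each read of Hoxb8. This proportion was not kept in the other 2, where 23 and 15 reads of Hoxb6 stood against 0 of Hoxb8, a count that allows up to 3 reads.

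The genes of group 13 ran the other way at ZT0, ZT12 and ZT18. Hoxb13 (ENSMUSG00000049604, chromosome 11, 96194316 to 96197447, plus strand) had 6405 and 3235 (ZT0), 3870 and 4086 (ZT6), 3538 and 5682 (ZT12) and 6927 and 2508 (ZT18) normalised counts. Its highest libraries were ZT18 replicate 1 and ZT0 replicate 1, where Hoxb6 was lowest, and its lowest ones ZT18 replicate 2 and ZT0 replicate 2, where Hoxb6 was highest. The range was 2.76-fold. ZT18 replicate 1 was the library with the milk genes, whose sum was 64.6 normalised counts in ZT0 replicate 1. The part of that tissue in the Hoxb13 and Hoxb6 values was not tested. Per kilobase, the level of Hoxb13 was 2.57 to 481 times that of Hoxb6 and exceeded it in all 8 libraries.

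Hoxd13 (ENSMUSG00000001819, chromosome 2, 74668310 to 74671599, plus strand) had 1136 and 457 (ZT0), 833 and 606 (ZT6), 762 and 1980 (ZT12) and 1194 and 295 (ZT18) normalised counts. It too was lowest in replicate 2 of ZT18 and of ZT0, with extremes 6.71-fold apart. Its highest value was in ZT12 replicate 2, the library with the prostate transcripts Pbsn and Tgm4, and group 13 Hox genes are also active in that gland. The part of that tissue in the value was not tested. In ZT0 replicate 1, where Pbsn was at 0, Hoxd13 was 2.49-fold above ZT0 replicate 2, and at ZT18, where it was at 0 as well, replicate 1 was 4.05-fold above replicate 2.

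**Figure D2:**
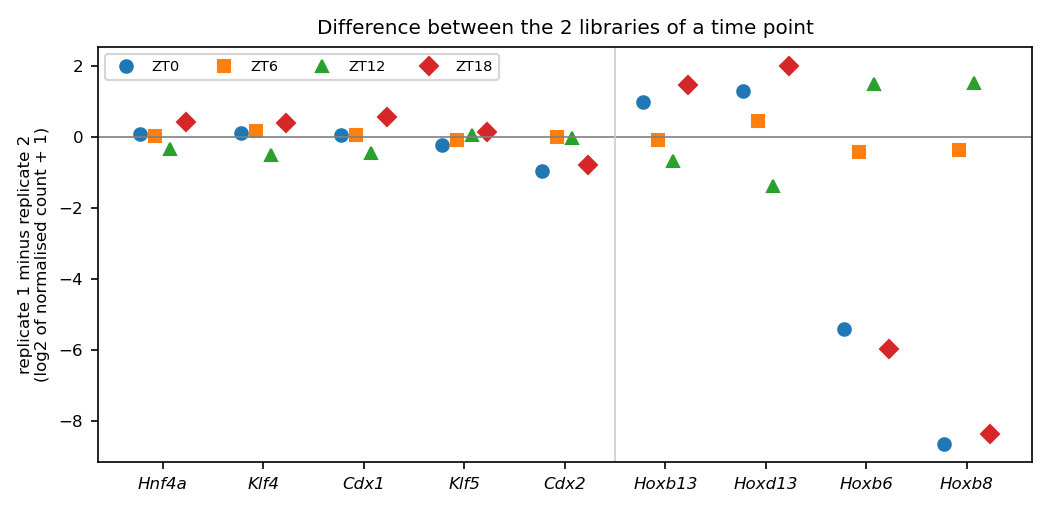
Difference between replicate 1 and replicate 2 of each time point for the 9 members, on the scale of log2(normalised count + 1). Each marker is 1 time point, and 0 means equal libraries. Differences of Hnf4a, Klf4, Cdx1 and Klf5 stay within 0.56 of 0, while those of Hoxb6 and Hoxb8 at ZT0 and ZT18 lie between -8.64 and -5.40.

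Across members, the range over libraries (highest minus lowest log2(normalised count + 1)) was 0.30 for Klf5, 0.43 for Hnf4a, 0.60 for Klf4, 0.81 for Cdx1 and 1.00 for Cdx2, with a median of 0.60. For the Hox genes it was 1.47 for Hoxb13, 2.74 for Hoxd13, 6.18 for Hoxb6 and 8.64 for Hoxb8, with a median of 4.46 that was the same with Hoxb8 at its lower bound of 7.06. The median over all 13503 genes tested was 0.95. Since the members were chosen for this contrast, it is described and not tested. The standard deviation within time points set each member against genes of similar level. It was 0.10 for Klf5 and 0.19 for Hnf4a, below the values of 0.21 and 0.26 fitted for genes of their level, 0.24 for Klf4 and 0.26 for Cdx1, near the fitted 0.24 and 0.22, and 0.44 for Cdx2, above the fitted 0.20. For Hoxb13 it was 0.67 against 0.20, for Hoxd13 0.99 against 0.21, for Hoxb6 2.90 against 0.30 and for Hoxb8 4.29 against 0.55. ZT0 replicate 1, both ZT6 libraries and ZT18 replicate 2 lacked the high smooth muscle, fibroblast, B cell, myeloid, Pbsn, Tgm4 and milk values given above. The T cell sum of ZT18 replicate 2 was 297. Over these libraries, a selection made after the data were seen, the median range was 0.36 for the identity factors and 3.56 for the Hox members.

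**Figure D3:**
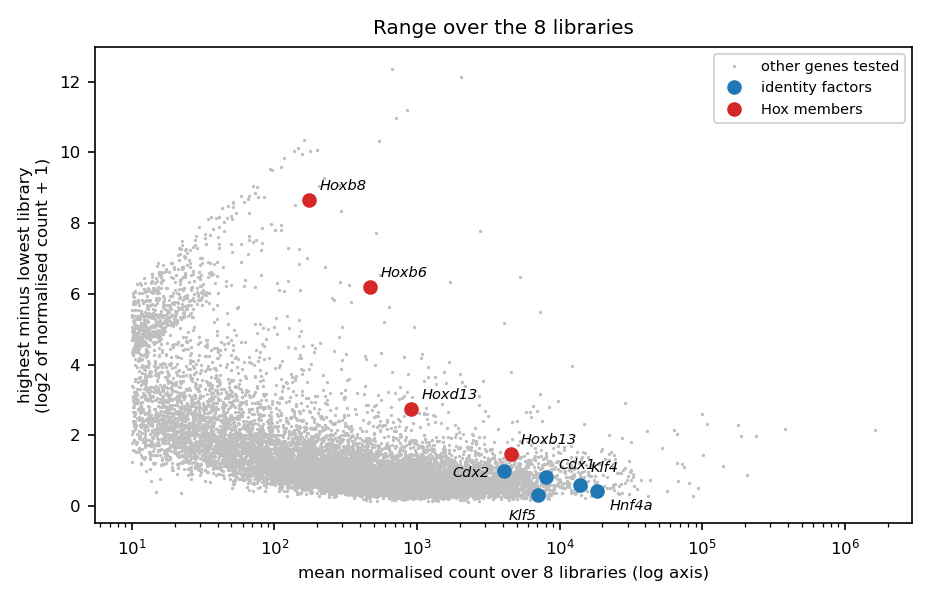
Range over the 8 libraries (highest minus lowest log2(normalised count + 1)) against the mean normalised count (log axis) for the 13503 genes tested. Grey points are other genes, blue points the identity factors and red points the Hox members. The identity factors lie between 0.30 and 1.00, and the Hox members between 1.47 and 8.64.

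The rest of the Hox family placed this split within the gene clusters. The table held 26 Hox genes, 10 of the Hoxa, 8 of the Hoxb and 8 of the Hoxd cluster, all of which passed the filter on low values. No Hoxc gene was in the deposited table, whose genes have a mean of at least 6.55. In both ZT0 replicate 1 and ZT18 replicate 1, 8 of the 22 Hox genes outside the member list were below the other 6 libraries, Hoxb3, Hoxb4, Hoxb5, Hoxb7, Hoxd3, Hoxd4, Hoxd8 and Hoxa6, a pattern held by 7.78% of all genes tested. Hoxb4, for example, had 0 and 171 (ZT0), 65.3 and 89.2 (ZT6), 110 and 55.3 (ZT12) and 0 and 163 (ZT18) normalised counts. It was undetected in the 2 libraries that had no Hoxb8 read.

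Within the Hoxb cluster, Hoxb9 stood apart from its neighbours. It lies 5.31 kb from Hoxb8 on chromosome 11, and had 1123 and 1808 (ZT0), 1641 and 1177 (ZT6), 1317 and 1140 (ZT12) and 1497 and 1798 (ZT18) normalised counts. In the libraries without a Hoxb8 read, Hoxb9 thus kept 1123 and 1497 normalised counts. Hoxb13, 74.0 kb from Hoxb9 on the other side, ran opposite to Hoxb6 and Hoxb8.

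In the Hoxd cluster, Hoxd4 followed Hoxb8, with 0 and 246 (ZT0), 115 and 122 (ZT6), 150 and 45 (ZT12) and 0 and 212 (ZT18) normalised counts. Hoxd9, Hoxd10, Hoxd11 and Hoxd12 were highest in ZT12 replicate 2, as Hoxd13 was. This held for 6 of the 22 other Hox genes and 8.68% of all genes tested, and the library was the one with prostate transcripts. Hoxd9 met it narrowly, with 27.7 normalised counts there against 24.6 in ZT6 replicate 1, on 106 reads summed over the 8 libraries. Hoxd12 had 12.8 and 2.41 normalised counts at ZT18, so that it did not follow Hoxd13 in ZT18 replicate 1. In the Hoxa cluster, ranges were smaller, with a median of 1.31 against 6.34 in Hoxb and 4.19 in Hoxd. Hoxa13 had 902 and 622 (ZT0), 1087 and 819 (ZT6), 887 and 1393 (ZT12) and 931 and 521 (ZT18) normalised counts, and was lowest in ZT18 replicate 2 like the other genes of group 13. None of the 9 members shares exon bases with another annotated gene, but Hoxa2, Hoxa3, Hoxa4, Hoxa7, Hoxa9, Hoxa11, Hoxb3, Hoxb5, Hoxd3, Hoxd4, Hoxd10 and Hoxd11 do, and Hoxd3 and Hoxd4 share them with each other, so that the values of these genes are uncertain.

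**Figure D4:**
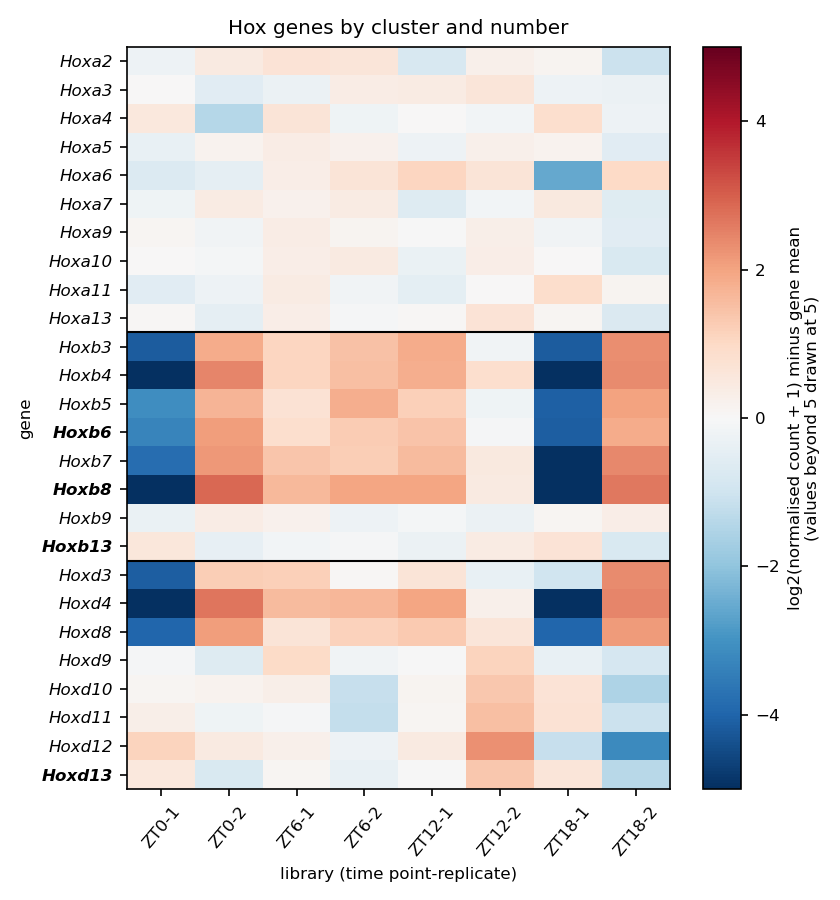
log2(normalised count + 1) of the 26 Hox genes in the table minus the mean of each gene over the 8 libraries, by cluster and gene number (rows) and library (columns), with the members in bold. Red is above and blue below the gene mean. Hoxb3 to Hoxb8, Hoxd4 and Hoxd8 are low in ZT0 replicate 1 and ZT18 replicate 1, whereas Hoxb9 has a range of 0.69 and the Hoxa genes have a median range of 1.31.

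Genes that differ along the intestine were compared with the same libraries. Of the 8 small intestine genes in the table, Slc10a2, the ileal bile acid transporter, Sis, the disaccharidase sucrase-isomaltase, and Fabp6 were lower in both ZT0 replicate 1 and ZT18 replicate 1 than in the other 6, a pattern held by 7.78% of all genes tested. Rbp2, a retinol-binding protein gene, was above the other 6 in both, with 1037 and 1153 normalised counts against at most 889, and the remaining 4 genes had neither pattern. Slc10a2 had 124 and 1300 (ZT0), 1552 and 1979 (ZT6), 4862 and 451 (ZT12) and 59.8 and 3417 (ZT18) normalised counts. Sis was at 0 in those same libraries, where Hoxb8 was at 0 too, and reached 1070 in ZT12 replicate 1. The order of the other libraries was not that of Hoxb6, since Slc10a2 and Sis were highest in ZT12 replicate 1.

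Among the colon genes, Car1, which encodes carbonic anhydrase 1, was below the other 6 libraries in ZT0 replicate 1 and ZT18 replicate 1. Car1 had 25770 and 126760 (ZT0), 105999 and 143331 (ZT6), 101729 and 108472 (ZT12) and 29320 and 156024 (ZT18) normalised counts. It was 4.92-fold and 5.32-fold higher in replicate 2 of ZT0 and ZT18. Aqp8, a water channel, Mptx1, a mucosal pentraxin, and Cldn8, a claudin gene, were above the other 6 in those libraries, a pattern held by 5.83% of all genes tested. Mptx1 was 3.85-fold higher in replicate 1 than in replicate 2 at ZT0 and 6.88-fold at ZT18. Cldn8 met it narrowly, since its 1799 normalised counts in ZT18 replicate 1 were level with the 1798 of ZT6 replicate 1. Both lists thus held some genes below and some above the other 6 in the same libraries.

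**Figure D5:**
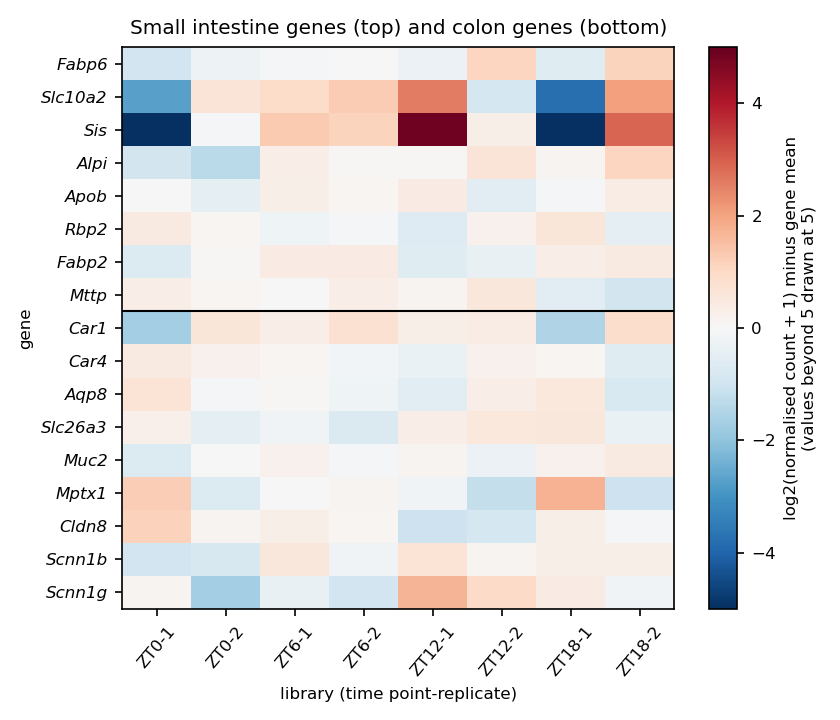
log2(normalised count + 1) minus the gene mean over the 8 libraries for the 8 small intestine genes (top) and 9 of the 10 colon genes (bottom) in the table. Columns are libraries. Slc10a2, Sis and Car1 are low in ZT0 replicate 1 and ZT18 replicate 1, where Mptx1 and Aqp8 are high.

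Another 24 intestinal epithelial factors, listed from general knowledge, were measured beside the identity members. They ranged over libraries by a median of 0.81 on the log2 scale, and 16 of 24 stayed under 1, as did 53.4% of all genes tested. Gata6, an endodermal zinc finger factor, had the smallest range, 0.26, with 894 to 1068 normalised counts. Foxa2, a forkhead factor of endoderm, had 470 to 618 and Vdr, the vitamin D receptor, 7722 to 10580. Isx, an intestine-specific homeobox factor, behaved otherwise and had 273 and 1794 (ZT0), 1297 and 1487 (ZT6), 1613 and 851 (ZT12) and 523 and 3018 (ZT18) normalised counts. It was lowest in the libraries in which Hoxb6 was lowest, 6.57-fold apart at ZT0 and 5.77-fold at ZT18. Ascl2, Hes1 and Grhl2 were also lowest in both of those libraries, with smaller ranges. Pdx1, a factor of duodenum and pancreas, did not exceed 38.2 normalised counts.

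Likeness of pattern was measured as Pearson's r of log2(normalised count + 1) over the 8 libraries, among 10016 genes outside the member list with a mean of at least 100 normalised counts. The points share the same 8 libraries and their tissue makeup, so r is a description. The genes most like Hoxb8 were Hoxd4 (r = 1.00), Ugt2b5, a glucuronosyltransferase (0.99), and Nkain1 (0.99). Those most like Hoxb6 were Ugt2b5 (1.00), Hoxd4 (0.99) and Hoxb5 (0.99). For Hoxb13 they were Derl1 (0.98), Slc8b1 (0.97) and Ly6g (0.97), and for Hoxd13 Palld, Mark2 and Ppp1r1b (each 0.96). Among the closest to Cdx2 were Irf8 (0.97) and Castor2 (0.96), and the closest to Cdx1 Rpl7, Arf5 and Pdzd11 (each 0.99). Hnf4a was most like Prdx6, Mrps6 and Txndc17 (0.97 to 0.98), and Klf4 most like Arhgdia, Ypel5 and Psma1 (0.95 to 0.96). The list of Klf5 was Shc1 (0.97), Acta2 (0.94) and U2af2 (0.90). Acta2 is a smooth muscle gene with 769 normalised counts in ZT12 replicate 1 and at most 62.3 elsewhere, and Klf5 was highest in that library. The part of smooth muscle in the Klf5 value was not tested.

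Between members, Hoxb6 and Hoxb8 had an r of 0.99, and Hoxb13 and Hoxd13 one of 0.87. Hoxb6 had -0.89 with Hoxb13 and -0.63 with Hoxd13. Cdx2 was positive with Hoxb6 (0.72) and Hoxb8 (0.70) and negative with Hoxb13 (-0.78) and Hoxd13 (-0.80), whereas Hnf4a was negative with Hoxb6 (-0.71) and positive with Hoxb13 (0.85). Cdx1 and Cdx2 had an r of -0.05.

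The design asks whether levels change with the time of day. The members were chosen with their levels in all 8 libraries known, so these tests are not independent of that choice. A gene chosen as level over all libraries has little room to be called. All 9 members passed the filter of a mean of at least 10 normalised counts. In limma's F-test over the 4 time points, 0 of 9 members had an adjusted p under 0.05, and 0.0889% of all 13503 genes tested did. The 24 h cosine fit also called 0 of 9 members (0.118% of all genes), and any of the 6 contrasts between time points called 0 (0.118% of all genes). With all 8 libraries, 0 members had an unadjusted p under 0.05 in each of these tests, against 7.03%, 9.15% and 23.5% of all genes. This unadjusted result was not kept in every fit that left out 1 library. At the adjusted threshold, edgeR and DESeq2 on the recovered reads called 0 as well. The F-test adjusted p of limma ran from 0.831 for Cdx2 to 0.997 for Hnf4a. A spread between replicates as wide as that of the Hox members leaves little room to see a change with time, so these values do not show that time of day has no effect.

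Among the identity factors, the largest contrast was Cdx2 at ZT12 against ZT6, a log2 fold change of -0.54 (SE 0.33, limma adjusted p 0.780). Cdx2 had 4584 ± 36.7 normalised counts at ZT6 and 3142 ± 35.4 at ZT12 (SD, n = 2 each), without overlap, but 4528 ± 2055 at ZT0 and 4078 ± 1527 at ZT18. Cdx1 was lower in both ZT12 libraries than at ZT0 (log2 fold change -0.35, SE 0.23, limma adjusted p 0.633) and than at ZT6. Klf5 was higher in both ZT12 libraries than in the other 6, with a log2 fold change of 0.17 (SE 0.17, limma adjusted p 0.760) against ZT0. Klf4 was higher in both ZT6 libraries than at ZT0, by 0.33 (SE 0.24, limma adjusted p 1.00), and likewise in both ZT18 libraries, by 0.34 (SE 0.24, limma adjusted p 0.999). Hnf4a stayed between 17941 ± 2980 and 18762 ± 402 at the 4 time points (SD, n = 2 each). Libraries that do not overlap were common among all genes, 18.9% higher at ZT6 and 13.6% higher at ZT18 than at ZT0, as Klf4 was, 20.7% higher and 20.3% lower at ZT12 than at ZT0, 23.5% higher and 22.2% lower at ZT12 than at ZT6, and 18.7% lower at ZT18 than at ZT12, as Klf5 was. These contrasts share libraries and are not independent of each other.

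No Hox member had time points without overlap. The largest contrast of Hoxb6 was ZT18 against ZT6, a log2 fold change of -2.17 (SE 1.93, limma adjusted p 0.899), and that of Hoxd13 was ZT18 against ZT12, -1.05 (SE 0.68, limma adjusted p 0.640). For Hoxb13, mean normalised counts were 4820 ± 2241 (ZT0), 3978 ± 153 (ZT6), 4610 ± 1516 (ZT12) and 4717 ± 3125 (ZT18), each with its SD over n = 2. The sign of ZT12 against ZT0 turned for Hoxb6, Hoxb8 and Hoxb13 without ZT0 replicate 1 (log2 fold changes of -1.41, -1.68 and 0.47, from 1.29, 2.64 and -0.02 with it). Of the 22 other Hox genes, 0 were called in the F-test (limma; 1 unadjusted, Hoxd12), and of the 24 other intestinal factors 0 (1 unadjusted, Pdx1). The F-test called 0 of the 13 other Klf genes as well (1 unadjusted, Klf9).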

How the data were processed

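RNA of colonic crypts was measured in 8 libraries, 2 at each of 4 time points. According to the methods, the authors used STAR to align paired-end reads to GRCm38, and DESeq2 thereafter. The labels and the methods name different library kits, and the annotation, the counting and the use of strand are not given in the sources used here. The authors deposited a table of 14247 genes with a mean of at least 6.55, in which the signal of each library is the read count divided by a size factor. The value of 1 read was found from the spacing of low values, which gave back whole reads (100% whole within 0.1 read in each library). The other deposited columns hold a log2 fold change by the authors with its standard error, a deposited score (the test statistic) and a deposited p-value and adjusted p-value, none of which was used.

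Log2(normalised count + 1) of 13503 genes with a mean of at least 10 was fitted with limma 3.58.1 (lmFit, eBayes with trend) in R 4.3.3, with 1 mean per time point or a 24 h cosine and sine term. The Benjamini-Hochberg adjustment of p-values covered all genes, and those under 0.05 were called. edgeR 4.0.16 and DESeq2 1.42.0 ran on the recovered reads. In simulated data with 200 changed genes among 13503, limma called 68% of 4-fold changes for ZT12 against ZT0. The simulated spread was that fitted for genes of similar level, which the Hox members and Cdx2 exceeded. The share therefore does not apply to them, and it says nothing about smaller changes. Gene positions and exon lengths were taken from GENCODE M21 (14244 of 14247 genes matched). Levels between genes were compared per kilobase of exon. The text names the 9 members, every Hox gene in the table, genes of the marker and segment lists by level or range, and the 3 genes most like each member. A few genes that this rule names are not reported here. Members and lists were chosen with earlier results of these data known. Legends in the study count mice for these crypt data, more of them per time point than the 2 libraries analysed here, and how mice map to libraries is not stated, so p-values measure only the spread between these samples. The alternatives were other scalings, filters, pseudocounts and tests, a replicate block, and leaving out each library.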

Additional observations from a re-analysis of the deposited data

How the results depend on the processing

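The count of members called was 0 in the F-test, the cosine fit and the contrasts under every alternative run, including TMM, quantile and non-mitochondrial scaling, no filter or a mean of at least 50, pseudocounts of 0.1 and 5, eBayes without trend, edgeR, DESeq2, an exact rank test in the manner of JTK and leaving out each library. The same held for the other Hox genes and the other intestinal factors wherever they were run. The rank test could not go below a p of 0.0190 per gene. Its smallest adjusted p over all genes was 0.877, so it called no gene and its count says nothing about the members. Non-mitochondrial scaling moved the median of all genes by -0.11 (log2) in ZT18 replicate 1, the only shift over 0.1.

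Deviations of same-numbered libraries correlated at -0.29 to 0.22, without a common sign. Tissue markers of single libraries enter these values, so they cannot decide whether the replicate numbers pair the libraries. A replicate block called 0 members. The median range of the identity factors moved from 0.60 to 0.36 with only ZT0 replicate 1, both ZT6 libraries and ZT18 replicate 2, an alternative chosen after seeing the data and made of fewer samples. Leaving out 1 library gave 0.53 to 0.60 for the identity factors and 4.07 to 4.46 for the Hox members.

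The sign of ZT12 against ZT0 turned in several members, none of them called. With edgeR and DESeq2 the log2 fold change was -0.25 and -0.26 for Hoxb6 and -0.48 and -0.50 for Hoxb8. Leaving out 1 library at a time gave -1.41 to 3.99 for Hoxb6 and -1.68 to 6.96 for Hoxb8, both lowest without ZT0 replicate 1 and highest without ZT0 replicate 2. The range was -0.51 to 0.47 for Hoxb13, above 0 without ZT0 replicate 1 and without ZT12 replicate 1 (0.32), -0.93 to 0.031 for Cdx2, above 0 without ZT0 replicate 2, and -0.23 to 0.12 for Hnf4a, above 0 without ZT12 replicate 1. The cause was not tested. Klf5 had a smaller range than Hnf4a except after quantile scaling (0.42 against 0.18) and non-mitochondrial scaling (0.33 against 0.30). At this depth the lowest values of Hoxb6 rested on 15 and 23 reads.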

Other observations

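Genes of enteroendocrine cells, the hormone-secreting cells of the epithelium, also split the libraries in which Hoxb6 and Hoxb8 were low. Of the 8 listed genes, Chga, Chgb, Neurod1, Gcg and Sct were lower in both ZT0 replicate 1 and ZT18 replicate 1 than in the other 6 libraries, a pattern held by 7.78% of all genes tested. Gcg, the gene of the glucagon-like peptides, had 202 and 527 (ZT0), 347 and 405 (ZT6), 611 and 550 (ZT12) and 182 and 462 (ZT18) normalised counts. Insl5, a hormone of colonic L cells, did not follow this split and was highest in ZT12 replicate 2 with 1081 normalised counts.

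Of the 8 goblet cell genes, 0 were below the other 6 libraries in both, and Fcgbp was above them with 78810 and 142544 normalised counts. Retnlb, a secreted goblet cell protein, had 35885 normalised counts in ZT12 replicate 2, 14558 in ZT18 replicate 1 and 795 to 2991 in the other 6 libraries.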
